A study of Mus musculus with 24 samples.

Results

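Of the 24 libraries of the series, 6 were compared with each other, 3 from cells treated with GSK215 at 0.1 μM and 3 from cells treated with VS-4718 at 1 μM. Both compounds act on focal adhesion kinase (FAK, encoded by *Ptk2*). The pair sets a PROTAC, or degrader, against the kinase inhibitor whose response lay closest to it in these data, and the doses differ 10-fold, so that compound and dose cannot be told apart. All libraries came from MS03, a mouse Schwann cell line that lacks *Nf2* in every group, controls included, grown in DMEM with 10% serum and collected after 24 hours. The 3 DMSO (solvent) libraries give each drug its control, and 3 libraries with the PROTAC BSJ-04-0146 (0.1 μM) and 3 with the kinase inhibitor defactinib (1 μM) form a second pair of the same kind that shares no library with the first. The labels call the replicates biological. MS03 is a single line, derived from floxed *Nf2* cells after Cre, so the replicates do not sample independent lines.

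FAK is a cytoplasmic tyrosine kinase that is recruited to integrins where cells attach to the extracellular matrix. It signals through its catalytic activity, by phosphorylating itself and partners such as paxillin and p130Cas, and also serves as a scaffold on which other proteins assemble. A kinase inhibitor blocks the activity and leaves the protein in place, whereas a PROTAC brings its target to an E3 ubiquitin ligase so that the whole protein is ubiquitinated and removed by the proteasome. In Schwann cells, FAK links laminin receptors to proliferation and to the sorting and myelination of axons, and merlin, the product of *Nf2*, restrains signals from the same adhesions.

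Each library was measured as read counts per gene, and levels are given here as CPM, each gene's share of the library's counts, scaled with TMM factors, which set the bulk of genes equal between libraries. The total count was 14472462 to 19331704 in the GSK215 libraries, 23095303 to 26550878 in the VS-4718 libraries and 22952048 to 27449516 in the DMSO libraries. In the second pair it was 16112245 to 17794597 with BSJ-04-0146 and 22539806 to 25999614 with defactinib. The TMM factors were 1.05 to 1.06 with GSK215 and 1.04 to 1.05 with BSJ-04-0146. They were 0.989 to 0.997 with VS-4718 and 0.976 to 0.982 with defactinib. In both pairs the degrader libraries thus had the smaller totals and the larger factors. The part of this in directions common to both pairs was not tested. Replicates differed by 1.73 to 1.95 times counting noise (chi-square per degree of freedom) within GSK215 and by 4.06 to 6.13 times within VS-4718. The share of counts from the mitochondrial genome was 3.83% to 4.25% with GSK215, 3.01% to 3.14% with VS-4718 and 3.03% to 3.06% with DMSO. VS-4718 replicate 2 had 1.61% of its counts in long noncoding RNA genes, against 1.27% and 1.28% in the other two. Of the Schwann cell markers checked, *Sox10*, *Ngfr*, *Erbb3* and *Cdh19* were present in every library of the 3 groups, whereas *S100b*, a calcium-binding protein of mature Schwann cells, had only 1 to 18 counts per library.

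The first question was how far the degrader and the inhibitor left the cells apart. Of 16070 genes tested, 7735 (48.1%) passed the edgeR quasi-likelihood test between GSK215 and VS-4718 (adjusted *P* under 0.05). Of these, 3596 (22.4%) were higher and 4139 (25.8%) lower with GSK215. Most differences were small. The median size of the log2 difference over all genes was 0.22, the median SE was 0.07, and 668 genes (4.16%) passed the threshold with a change of at least 2-fold. Of those 668, 603 (3.75% of all genes) were higher and 65 (0.404%) lower with GSK215. The 3 libraries of one drug all lay above the 3 of the other for 4130 genes (25.7%) in the direction of GSK215 and for 4401 genes (27.4%) in that of VS-4718. CPM are shares of a library, so a change in total RNA per cell or in cell number cannot be seen in them.

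The direction went with the level of the gene. Among the 3265 genes whose mean lay under 1 CPM, 410 (12.6%) were higher and 55 (1.68%) lower with GSK215, and 350 of the 2-fold increases lay there. Among the 2511 genes over 100 CPM, 351 (14.0%) were higher and 1597 (63.6%) lower, and the median log2 difference was -0.15. The split also depended on scaling and on the genes kept. When library totals replaced the TMM factors, 4859 genes were higher and 2711 lower, and with only the genes of at least 5 CPM tested and used for the TMM factors, an alternative added after the data were seen, 3177 were higher and 3128 lower. The median over all genes was 0.01 with TMM and 0.10 with library totals. Differences of about 0.1 in either direction are therefore within reach of the scaling, and a list of abundant genes has to be read against genes of like abundance. For this, the shares higher and lower in the 5 level classes (under 1, 1 to 5, 5 to 20, 20 to 100 and over 100 CPM) were averaged over the members of each list, and this level-matched share, added after the data were seen, is given beside the lists below that have at least 8 tested members.

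**Figure D1:**
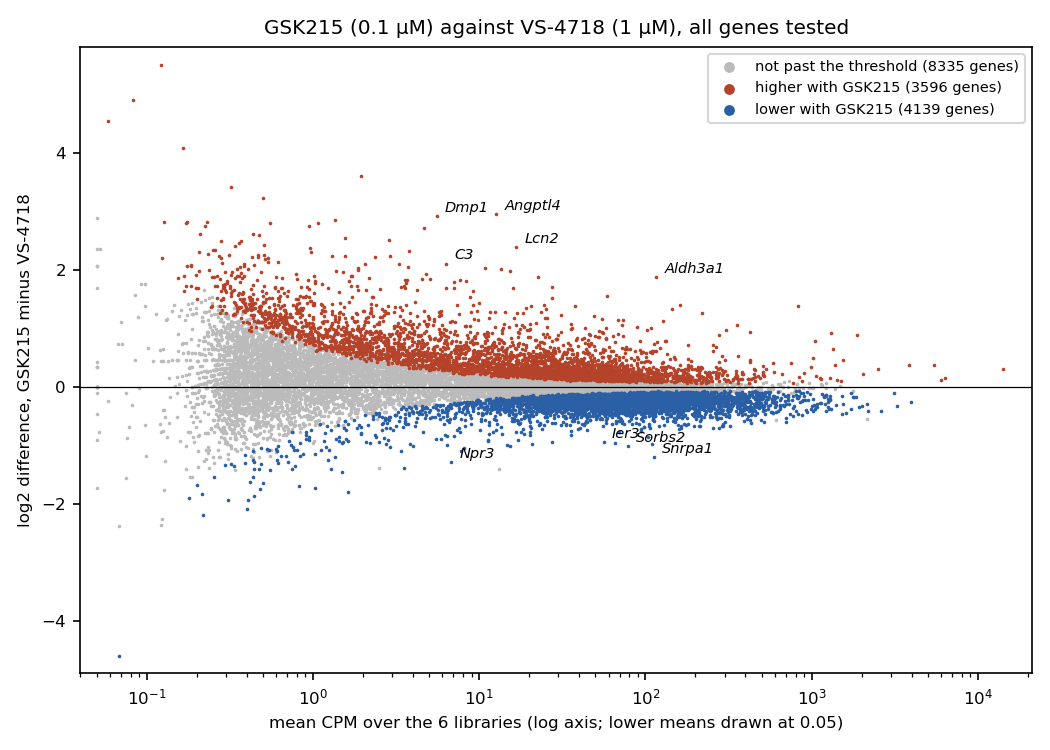
Log2 difference between GSK215 and VS-4718 (vertical axis) against the mean CPM over the 6 libraries (horizontal log axis) for the 16070 genes tested, each gene 1 point. Red points (3596) were higher and blue points (4139) lower with GSK215 at an adjusted *P* under 0.05, grey points did not pass. The red points fan out at low levels on the left, while the blue points gather at higher levels on the right and few reach a log2 difference of -1.

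The 12 largest increases among genes of at least 5 CPM whose libraries did not overlap were led by secreted and lipid-handling proteins. *Angptl4* (chr17:33773750-33781830, minus strand, GENCODE M21 on GRCm38), a secreted inhibitor of lipoprotein lipase, was at 2.51, 3.19 and 2.96 CPM with VS-4718 and 23.4, 23.0 and 20.8 CPM with GSK215, a 7.76-fold difference of means (log2 difference 2.96, SE 0.12, edgeR adjusted *P* = 2.1e-22). *Dmp1*, an acidic phosphoprotein known from bone and dentin, was at 1.56, 1.27 and 1.02 CPM with VS-4718 and 11.0, 10.0 and 8.48 CPM with GSK215 (log2 difference 2.92, SE 0.17, edgeR adjusted *P* = 2.5e-17). *Lcn2*, the iron-siderophore carrier lipocalin 2, was at 5.22, 5.37 and 5.54 CPM with VS-4718 and 28.8, 28.4 and 27.1 CPM with GSK215 (log2 difference 2.38, SE 0.09, edgeR adjusted *P* = 2.6e-22). In each of these genes the lowest GSK215 library stood several times above the highest VS-4718 library. *C3*, the central complement component, differed by 2.11 and *Apod*, a lipid carrier that injured peripheral nerve makes in quantity, by 2.02 on the log2 scale. *Plxnb3*, a semaphorin receptor, stood at 4.15, 4.58 and 4.02 CPM with VS-4718 and 17.0, 16.3 and 18.7 CPM with GSK215. The enzymes of this group were *Xdh* (xanthine dehydrogenase, 1.97), *Aldh3a1* (an aldehyde dehydrogenase, 1.87) and *Ass1* (argininosuccinate synthase, 1.82). *Aldh3a1* was the most abundant of those named, at 49.0, 47.8 and 52.1 CPM with VS-4718 and 176, 186 and 184 CPM with GSK215. *Prelp*, a small leucine-rich matrix proteoglycan, differed by 1.87 and *Plekha4* by 1.85, the last at only 2.25, 2.18 and 2.24 CPM with VS-4718 and 5.38, 9.61 and 8.78 CPM with GSK215.

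The 12 largest decreases were smaller and held several feedback regulators and cytoskeletal genes. *Npr3*, the natriuretic peptide clearance receptor, was at 9.41, 10.2 and 9.22 CPM with VS-4718 and 4.40, 3.84 and 3.65 CPM with GSK215 (log2 difference -1.29, SE 0.13, edgeR adjusted *P* = 1.1e-10). *Snrpa1*, a component of the U2 spliceosomal particle (chr7:66059003-66074587, plus strand), was at 157, 156 and 156 CPM with VS-4718 and 64.2, 70.7 and 70.0 CPM with GSK215 (log2 difference -1.19, SE 0.04, edgeR adjusted *P* = 1.1e-24). The DMSO libraries of *Snrpa1* were at 100.4, 95.4 and 96.1 CPM, between those of the drugs. The phosphatases *Dusp8* (-1.08) and *Dusp14* (-0.97), which act on MAP kinases, were both lower with GSK215. *Rnd1*, an atypical small GTPase that loosens actin structures, was at 21.4, 19.7 and 20.5 CPM with VS-4718 and 9.91, 10.1 and 10.7 CPM with GSK215, and *Sorbs2*, an adaptor at actin stress fibers, differed by -1.01 and the keratin *Krt80* by -1.04. *Plk2*, a stress-induced polo-like kinase, was at 87.5, 88.2 and 86.0 CPM with VS-4718 and 47.4, 43.2 and 44.2 CPM with GSK215, and *Csrnp1*, a nuclear protein of the immediate-early class, differed by -0.98. *H2afx*, the histone H2A variant whose phosphorylation marks DNA breaks, was at 60.4, 63.6 and 66.4 CPM with DMSO, 156, 145 and 138 with VS-4718 and 71.0, 75.4 and 76.2 with GSK215, so that its lower value with GSK215 (log2 difference -0.98, SE 0.05, edgeR adjusted *P* = 6.1e-20) lay close to the DMSO level. The replication-dependent histone *Hist1h2af* differed by -0.99, but near-identical histone copies may share its reads and its transcripts mostly lack the poly(A) tail on which the libraries were selected. For any one of these genes, the two-sided exact permutation test over 3 and 3 libraries cannot go below *P* = 0.10, so the calls rest on the spread pooled over all genes and groups.

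**Figure D2:**
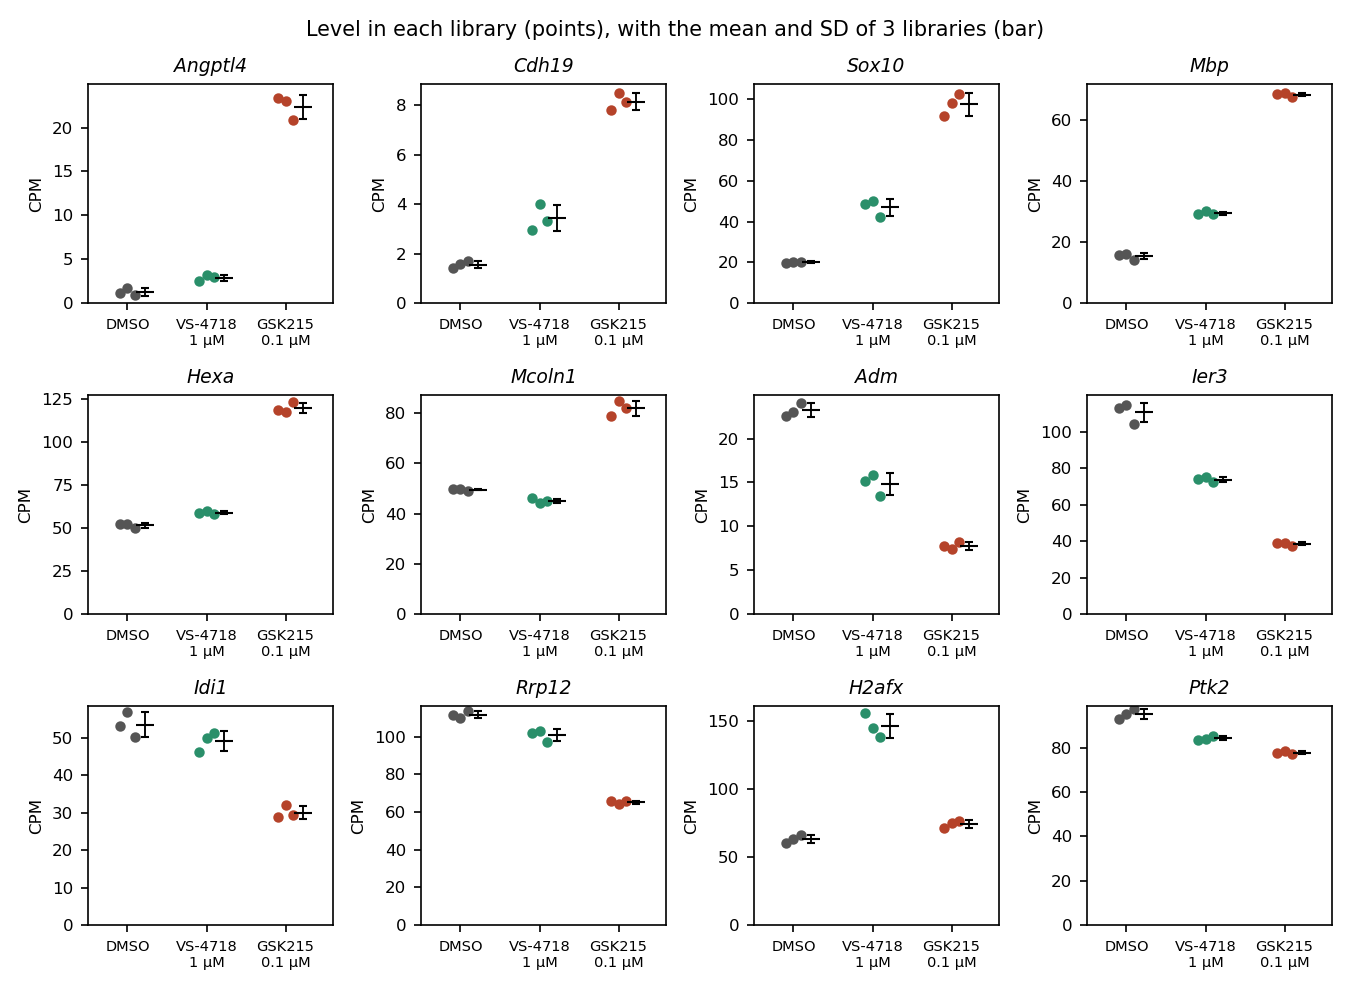
CPM (vertical axis, from 0) in each of the 3 DMSO, 3 VS-4718 and 3 GSK215 libraries (points) for 12 genes, with the mean and SD beside them. *Angptl4* is several times higher in the GSK215 libraries than in both other groups, *Sox10* and *Mbp* step up from DMSO to VS-4718 to GSK215, and *H2afx* is high in the VS-4718 libraries alone.

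The target gene itself differed little. *Ptk2* (chr15:73205102-73423280, minus strand) was at 92.8, 95.3 and 97.6 CPM with DMSO, 83.5, 84.0 and 85.3 with VS-4718 and 77.6, 78.5 and 77.3 with GSK215. The groups did not overlap, and the difference between the drugs passed the test (log2 difference -0.12, SE 0.04, edgeR adjusted *P* = 0.0084), but with library totals alone it was -0.03 with an adjusted *P* of 0.51, and the call was also lost with the 5 CPM minimum (adjusted *P* = 0.15), without GSK215 replicate 3 (adjusted *P* = 0.051) or VS-4718 replicate 3 (adjusted *P* = 0.053). These are levels of RNA, and FAK protein was not measured in these libraries. *Ptk2b*, which encodes the related kinase PYK2, had 0 to 4 counts in each of the 9 libraries and was not tested. *Nf2* RNA was at 193, 185 and 187 CPM with VS-4718 and 155, 156 and 162 CPM with GSK215 (log2 difference -0.26, SE 0.03, edgeR adjusted *P* = 2.6e-08), and counts per gene do not show whether its deleted exons are missing. *Met*, the receptor for hepatocyte growth factor, was at 193, 203 and 201 CPM with VS-4718 and 198, 182 and 181 CPM with GSK215 (log2 difference -0.09, SE 0.03, edgeR adjusted *P* = 0.023), a call that did not last in 8 of 16 alternatives. Of E3 ligase parts, *Vhl* was at 32.4, 34.3 and 32.8 CPM with VS-4718 and 29.8, 29.8 and 29.3 CPM with GSK215 (log2 difference -0.16, SE 0.05, edgeR adjusted *P* = 0.0088) and *Crbn* at 32.1, 34.6 and 31.1 CPM with VS-4718 and 31.8, 31.7 and 27.3 CPM with GSK215 (log2 difference -0.11, SE 0.06, edgeR adjusted *P* = 0.16), the latter not past the threshold, and the call for *Vhl* was lost with library totals alone (adjusted *P* = 0.21), with the 5 CPM minimum (0.062) and without GSK215 replicate 3 (0.050).

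Around FAK, 16 of 27 tested genes of the focal adhesion list were lower with GSK215 and 2 were higher, with a median log2 difference of -0.12 (11 lower with library totals alone). The share lower, 59.3%, was near the level-matched share of 50.4%. *Bcar1*, which encodes the FAK substrate p130Cas, was at 163, 161 and 157 CPM with DMSO, 251, 245 and 226 with VS-4718 and 156, 166 and 171 with GSK215 (log2 difference -0.55, SE 0.04, edgeR adjusted *P* = 1.7e-14). *Src*, the kinase that pairs with FAK, was at 134, 134 and 140.2 CPM with DMSO, 183, 177 and 161 with VS-4718 and 125, 136 and 137 with GSK215 (log2 difference -0.39, SE 0.04, edgeR adjusted *P* = 9.4e-10). *Tln1*, which couples integrins to actin, differed by -0.37. In all 3 genes the VS-4718 libraries were the high ones and GSK215 lay near or below DMSO. *Tns1*, tensin 1, which sits in fibrillar adhesions, went the other way, at 42.9, 44.8 and 41.7 CPM with DMSO, 91.3, 88.2 and 88.0 with VS-4718 and 234, 241 and 232 with GSK215 (log2 difference 1.40, SE 0.04, edgeR adjusted *P* = 2.1e-26).

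Among receptors for the matrix, 7 of 17 tested integrins were higher and 4 lower (median 0.20), with 2 lower with library totals alone and 6 lower with GC and length trends removed. The level-matched shares were 23.0% higher, against 41.2%, and 30.9% lower, against 23.5%. *Itga8* was at 4.53, 6.24 and 6.34 CPM with VS-4718 and 8.53, 9.82 and 7.35 CPM with GSK215, and *Itga6*, a subunit of laminin receptors, was at 38.6, 41.2 and 43.2 CPM with VS-4718 and 56.8, 53.9 and 54.4 CPM with GSK215. *Itgb7* differed by 0.54 and *Itgb8* by 0.39. The largest value in the list was 1.68, and 1 integrin, under the 5 CPM limit for naming, was at least 2-fold higher. *Itga6* and *Itgb7* were lower than DMSO with VS-4718 (log2 -0.35 and -0.66) and not past the threshold against DMSO with GSK215. The 4 lower integrins were *Itga11* (-1.01), with a mean under 1 CPM, and, by less, *Itga7* (-0.22), *Itga3* (-0.19) and *Itga5* (-0.14), not all of which the naming rule covers. Of 9 tested laminin genes, 2 were higher and 2 lower (22.2% each, against level-matched shares of 22.1% higher and 33.7% lower). *Lamb2* differed by 0.28, while the lower values of *Lama5* (-0.11) and *Lamc1* (-0.09) lost their calls with library totals alone, with the 5 CPM minimum and without several of the single replicates.

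In the list of SRF-driven actin and contractile genes, whose transcription follows actin assembly, 15 of 21 were lower and 2 higher (median -0.34), 71.4% lower against a level-matched 38.6%. *Tagln2*, transgelin 2, was at 206, 206 and 210.2 CPM with VS-4718 and 136, 128 and 137 CPM with GSK215 (log2 difference -0.63, SE 0.04, edgeR adjusted *P* = 8.5e-18) and *Fhl2* differed by -0.54. The exceptions were *Mylk*, myosin light chain kinase (1.27), and *Tpm2*, a tropomyosin (0.61). Of 23 YAP and TEAD targets, which merlin restrains, 14 were lower and 2 higher (median -0.25), 60.9% lower against a level-matched 43.7%. *Cyr61* (*Ccn1*), a matricellular protein and standard YAP readout, was at 337, 337 and 325 CPM with DMSO, 322, 315 and 309 with VS-4718 and 191, 199 and 195 with GSK215 (log2 difference -0.69, SE 0.03, edgeR adjusted *P* = 1.7e-20). *Ajuba*, at 122, 122 and 124 CPM with DMSO, 187, 181 and 175 with VS-4718 and 112, 121 and 126 with GSK215, was raised by VS-4718 only, whereas *Wwc1*, the Hippo regulator KIBRA, was at 195, 211 and 199.6 CPM with DMSO, 180.1, 173 and 174 with VS-4718 and 116, 116 and 122 with GSK215. *Gadd45a*, a growth arrest gene, was higher with GSK215 (0.72). Of 16 genes of the NF2, YAP and TEAD pathway itself, 12 were lower and 2 higher (median -0.14), but only 5 were lower with library totals alone. The level-matched share lower was 47.6%, against 75.0%. Its named members were *Tead4* (-0.41), *Stk4*, the kinase MST1 (-0.34), and *Tead2* (0.24).

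Among the lists with at least 8 tested members, Schwann cell genes had the largest upward median. Of 24 tested identity and myelin genes, 15 were higher and 2 lower with GSK215 (median 0.59), and 7 rose by at least 2-fold. The level-matched share higher was 25.5%, against 62.5%. *Sox10* (chr15:79154908-79165240, minus strand), the transcription factor that specifies and maintains the lineage, was at 19.7, 20.3 and 20.3 CPM with DMSO, 48.7, 50.1 and 42.2 with VS-4718 and 91.6, 98.4 and 103 with GSK215 (log2 difference 1.06, SE 0.06, edgeR adjusted *P* = 2.2e-18). *Mbp*, myelin basic protein, was at 15.9, 16.0 and 14.2 CPM with DMSO, 29.1, 30.0 and 29.1 with VS-4718 and 68.4, 68.9 and 67.7 with GSK215 (log2 difference 1.21, SE 0.05, edgeR adjusted *P* = 1.0e-21). The 3 groups formed 3 separate steps in both genes, with DMSO lowest and GSK215 highest. *Cdh19*, a cadherin of Schwann cell precursors, was at 1.40, 1.58 and 1.69 CPM with DMSO, 2.97, 4.01 and 3.30 with VS-4718 and 7.81, 8.49 and 8.14 with GSK215 (log2 difference 1.26, SE 0.13, edgeR adjusted *P* = 1.5e-10). *Erbb3*, the neuregulin receptor, was at 3.89, 3.49 and 3.05 CPM with DMSO, 10.9, 9.16 and 10.0 with VS-4718 and 21.7, 20.7 and 18.8 with GSK215 (log2 difference 1.02, SE 0.08, edgeR adjusted *P* = 7.4e-13) and *Ngfr*, the p75 neurotrophin receptor of immature and repair Schwann cells, at 9.63, 10.5 and 11.1 CPM with DMSO, 37.4, 36.2 and 32.4 with VS-4718 and 66.2, 64.0 and 63.4 with GSK215 (log2 difference 0.87, SE 0.05, edgeR adjusted *P* = 3.8e-16). The 2 lower members, named because they went the other way, were *Prx*, periaxin, of myelinating cells (-0.47), and *Drp2*, its partner (-0.88). *S100b* passed the test at very low levels (1.97, at most 18 counts in a library). Of 11 trophic factor genes, 3 were higher and 3 lower (median 0.02, 27.3% each against level-matched shares of 25.6% higher and 20.5% lower). *Nrg1*, neuregulin 1, was lower, at 12.7, 10.9 and 13.0 CPM with VS-4718 and 8.92, 7.90 and 7.74 CPM with GSK215, and *Artn*, artemin (0.30), and *Clcf1* (0.22) were higher.

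Genes of the lysosome were mostly higher with GSK215. Of 35 tested, 28 were higher, 6 did not pass and 1, *Tfe3*, was lower (median 0.35). The difference for *Tfe3* was small, its libraries overlapped (log2 difference -0.12, SE 0.05, edgeR adjusted *P* = 0.036), and 0 to 2 members were lower over the alternatives. The level-matched share higher was 20.9%, against 28 of 35. *Hexa* (chr9:59539540-59565109, plus strand), the alpha subunit of the enzyme lost in Tay-Sachs disease, was at 52.2, 52.5 and 50.1 CPM with DMSO, 58.8, 60.0 and 58.2 with VS-4718 and 118, 117 and 123 with GSK215 (log2 difference 1.02, SE 0.04, edgeR adjusted *P* = 5.9e-22). *Mcoln1* (chr8:3500457-3515232, plus strand), the lysosomal calcium channel TRPML1, was at 49.6, 49.6 and 49.2 CPM with DMSO, 46.0, 44.1 and 44.9 with VS-4718 and 79.0, 84.9 and 82.0 with GSK215 (log2 difference 0.87, SE 0.05, edgeR adjusted *P* = 5.2e-18). *Ctsa*, cathepsin A, was at 161, 163 and 162 CPM with DMSO, 206, 202 and 196 with VS-4718 and 301, 309.8 and 316 with GSK215 (log2 difference 0.62, SE 0.03, edgeR adjusted *P* = 6.7e-20), and *Neu1*, the sialidase that cathepsin A protects, was at 21.7, 23.6 and 20.4 CPM with VS-4718 and 32.1, 33.8 and 35.8 CPM with GSK215 (log2 difference 0.64, SE 0.06, edgeR adjusted *P* = 4.4e-11). Against DMSO, VS-4718 moved *Hexa* by 0.19 and *Mcoln1* by -0.14, whereas *Ctsa* was already higher with VS-4718 and higher again with GSK215. Of 22 autophagy genes, 8 were higher and 5 lower (median 0.05, 11 higher and 2 lower with library totals alone, 4 higher without VS-4718 replicate 2). The level-matched shares were 22.6% higher, against 36.4%, and 41.7% lower, against 22.7%. *Gabarap* (0.34), *Nbr1* (0.29) and *Sqstm1*, the cargo receptor p62 (0.27), were higher and *Atg101* (-0.28) was lower.

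Promoters of the lysosomal members are shown because many genes of this organelle carry the E-box CACGTG, to which the factors TFEB and TFE3 bind within the longer CLEAR element. RefSeq (GRCm38.p6) gave a promoter, 250 bases before to 50 after the start, for 26 of the 36 lysosomal genes. Where a gene had several promoters, a match in any of them counted, in all gene sets alike. CACGTG, which reads the same on both strands, was in 10 of the 26 (38.5%) against 2187 of 27025 genes in the table (8.09%) and 1218 of 10507 genes that were tested and had a promoter (11.6%). Its longer form TCACGTGA, which contains the first motif, was in 7 of the 26 (26.9%) against 304 of 27025 (1.12%) and 228 of 10507 (2.17%). For ribosome biogenesis, a group that went the other way with GSK215, CACGTG was in 5 of 24 promoters (20.8%) and TCACGTGA in none of them. The 4 lysosomal genes named above and *Pes1*, a ribosome biogenesis member with a match, are printed 5′ to 3′ on the gene's strand, with each CACGTG in capitals. A window with CACGTG was printed where the gene had one, so the printed windows were picked for the motif. The window of *Ctsa* lies inside the gene as given in GENCODE M21, which starts at 164832873. *Ctsa* and *Mcoln1* had 2 matches each and *Pes1* had 1, whereas these letters were not in the windows of *Hexa* and *Neu1*.
Ctsa (chr2:164833523-164833822, plus strand): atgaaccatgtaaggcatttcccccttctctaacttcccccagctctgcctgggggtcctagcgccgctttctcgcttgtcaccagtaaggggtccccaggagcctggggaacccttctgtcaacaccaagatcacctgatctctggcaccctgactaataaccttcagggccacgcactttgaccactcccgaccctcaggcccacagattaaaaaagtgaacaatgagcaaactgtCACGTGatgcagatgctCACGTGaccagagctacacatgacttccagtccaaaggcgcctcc
Mcoln1 (chr8:3500269-3500568, plus strand): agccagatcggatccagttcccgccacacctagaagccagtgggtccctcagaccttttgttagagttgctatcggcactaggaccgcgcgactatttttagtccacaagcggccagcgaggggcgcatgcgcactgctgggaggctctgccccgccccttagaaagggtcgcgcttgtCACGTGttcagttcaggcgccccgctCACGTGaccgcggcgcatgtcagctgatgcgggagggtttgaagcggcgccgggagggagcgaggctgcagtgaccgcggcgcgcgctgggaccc
Hexa (chr9:59539290-59539589, plus strand): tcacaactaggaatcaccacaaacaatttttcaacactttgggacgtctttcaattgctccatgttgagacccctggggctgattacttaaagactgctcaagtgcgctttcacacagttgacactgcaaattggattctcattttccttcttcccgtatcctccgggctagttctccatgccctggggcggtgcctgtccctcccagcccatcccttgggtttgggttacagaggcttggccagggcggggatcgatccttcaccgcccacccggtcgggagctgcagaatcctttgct
Neu1 (chr17:34931003-34931302, plus strand): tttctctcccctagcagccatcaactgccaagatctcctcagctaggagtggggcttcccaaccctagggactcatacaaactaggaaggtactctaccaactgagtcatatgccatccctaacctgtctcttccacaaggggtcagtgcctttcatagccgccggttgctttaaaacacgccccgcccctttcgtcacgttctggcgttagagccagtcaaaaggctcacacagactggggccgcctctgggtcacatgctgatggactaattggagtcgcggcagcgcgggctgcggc
Pes1 (chr11:3963725-3964024, plus strand): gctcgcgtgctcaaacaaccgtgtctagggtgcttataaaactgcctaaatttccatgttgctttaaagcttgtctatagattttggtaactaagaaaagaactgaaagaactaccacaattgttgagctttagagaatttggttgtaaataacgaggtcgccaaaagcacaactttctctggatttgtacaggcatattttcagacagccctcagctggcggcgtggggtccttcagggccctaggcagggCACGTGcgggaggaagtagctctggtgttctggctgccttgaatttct

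Collagen, matrix protease and axon guidance genes were more often higher than lower. Of 24 tested collagen genes, 13 were higher and 7 lower (median 0.38, with 7 higher and 3 lower among the fewer genes kept by the 5 CPM minimum), 54.2% higher against a level-matched 19.7%. *Col18a1*, the most abundant of those named, was at 799, 783 and 735 CPM with VS-4718 and 1299.6, 1347 and 1343 CPM with GSK215 (log2 difference 0.78, SE 0.03, edgeR adjusted *P* = 1.8e-21). *Col6a1* was at 21.8, 21.4 and 19.4 CPM with VS-4718 and 36.0, 37.4 and 36.9 CPM with GSK215, *Col11a1* differed by 0.76 and the fibrillar collagen *Col3a1* by 0.41. Of 22 matrix proteases and TIMPs, 17 were higher and 2 lower (median 0.38), 77.3% higher against a level-matched 25.0%. Among the fewer genes kept by the 5 CPM minimum, 11 were higher. The aggrecanase *Adamts4* was at 38.8, 36.0 and 38.7 CPM with DMSO, 83.8, 81.5 and 82.3 with VS-4718 and 207, 211 and 206 with GSK215 (log2 difference 1.33, SE 0.04, edgeR adjusted *P* = 2.0e-26), and *Adamts5* (0.80), *Adamts9* (0.58) and the gelatinase *Mmp2* (0.45) were higher as well. Of 29 plexins, semaphorins and neuropilins, the receptors and ligands of axon guidance, 18 were higher and 5 lower (median 0.34), 62.1% higher against a level-matched 24.0%. Among members of at least 5 CPM, *Plxnb3* was followed by *Sema4g* (0.78), *Sema6a* (0.73) and *Plxnd1* (0.62). In the whole list, 2 members were at least 2-fold higher. The 15 Eph receptors and ephrins were split, 5 higher and 5 lower, but 2 lower with library totals alone (33.3% each, against level-matched shares of 27.3% higher and 24.6% lower). *Epha2*, at 195, 198 and 200.1 CPM with DMSO, 251, 243 and 228 with VS-4718 and 147, 156 and 153 with GSK215, was raised by VS-4718 and lowered by GSK215, and *Efnb1* was at 14.1, 12.7 and 11.8 CPM with VS-4718 and 20.1, 19.8 and 20.8 CPM with GSK215, with *Ephb3* (0.46) higher and *Efnb3* (-0.41) lower.

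Of 14 receptor tyrosine kinases, 4 were higher and 3 lower (median 0.07), and 7 were higher with library totals alone. The shares were 28.6% higher and 21.4% lower, against level-matched shares of 21.9% and 32.6%. *Pdgfra* was at 12.8, 13.6 and 14.2 CPM with VS-4718 and at 24.0 to 27.9 CPM with GSK215 (log2 difference 0.97, SE 0.07, edgeR adjusted *P* = 3.9e-14) and *Pdgfrb* at 37.2, 38.5 and 35.1 CPM with VS-4718 and 66.3, 67.0 and 66.6 CPM with GSK215 (log2 difference 0.85, SE 0.05, edgeR adjusted *P* = 5.3e-16). *Fgfr1* differed by 0.90 and *Ddr1*, a receptor for collagen, by 0.32. In all 4 genes the 3 GSK215 libraries lay above the 3 VS-4718 libraries.

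Genes of ribosome assembly, the proteasome, tRNA charging and heat shock chaperones were mostly lower with GSK215, and beyond the level-matched shares lower, which were 58.5%, 62.0%, 61.0% and 45.0% for the 4 lists in that order. Of 30 ribosome biogenesis genes, 29 were lower and none higher (median -0.39). *Rrp12* was at 112, 110.0 and 114 CPM with DMSO, 102, 103 and 97.2 with VS-4718 and 65.6, 64.1 and 65.8 with GSK215 (log2 difference -0.63, SE 0.04, edgeR adjusted *P* = 2.2e-15), and *Tcof1* (-0.55), *Pes1* (-0.53) and *Nolc1* (-0.52), which act in making or processing ribosomal RNA, followed. Of 31 proteasome subunits, 30 were lower and none higher (median -0.27), and 25 were lower with library totals alone. *Psmd3* was at 373, 361 and 353 CPM with VS-4718 and 266, 274 and 267 CPM with GSK215 (log2 difference -0.43, SE 0.03, edgeR adjusted *P* = 1.8e-14), with *Psmc4* (-0.42), *Psmb2* (-0.38) and *Psmb7* (-0.36). Of 20 aminoacyl-tRNA synthetases, which charge tRNAs, 18 were lower and none higher (median -0.35), among them *Mars* at 271, 263 and 266 CPM with DMSO, 185, 189 and 180.5 with VS-4718 and 130.2, 132 and 136 with GSK215, *Hars* (-0.44), *Gars* (-0.43) and *Kars* (-0.40). Of 16 heat shock chaperones, 14 were lower and none higher (median -0.30), with *Hsph1*, the HSP110 chaperone, at 325, 323 and 322 CPM with DMSO, 344, 342 and 337 with VS-4718 and 204, 213 and 213 with GSK215 (log2 difference -0.70, SE 0.03, edgeR adjusted *P* = 5.9e-21), followed by *Hsp90aa1* (-0.46), *Dnajb1* (-0.45) and *Hspe1* (-0.44). The 20 chaperones of the endoplasmic reticulum were split, 7 higher and 7 lower (10 and 3 with library totals alone), which is 35.0% each against level-matched shares of 19.0% higher and 51.0% lower. *Pdia4* (0.32) and *Dnajb9* (0.38) were higher and *Creld2* (-0.27) and *Manf* (-0.25) lower.

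Sterol and fatty acid synthesis were lower as well. Of 26 genes of cholesterol synthesis and uptake, 19 were lower and 1, *Ebp*, higher (median -0.44, the lowest of the list medians), 73.1% lower against a level-matched 39.8%. *Idi1*, the isopentenyl diphosphate isomerase, was at 53.1, 56.8 and 50.2 CPM with DMSO, 46.2, 49.8 and 51.2 with VS-4718 and 28.7, 31.9 and 29.3 with GSK215 (log2 difference -0.71, SE 0.06, edgeR adjusted *P* = 2.7e-13). The sterol carrier *Stard4* differed by -0.62. Of 17 genes of fatty acid synthesis and desaturation, 12 were lower and none higher (median -0.29), 70.6% lower against a level-matched 45.5%. The desaturase *Scd2* was at 1479.7, 1471 and 1484 CPM with DMSO, 828, 852 and 839.5 with VS-4718 and 572, 552 and 545 with GSK215 (log2 difference -0.59, SE 0.03, edgeR adjusted *P* = 1.0e-18), with *Fads3* (-0.67), *Fads2* (-0.58) and *Scd1* (-0.53). *Scd1* and *Scd2* are near copies, so reads could be split between them. In the list of angiopoietin-like and PPAR targets, 9 of 16 were higher and 2 lower (median 0.25), 56.2% higher against a level-matched 21.3%. Beside *Angptl4*, *Cpt1a*, the gate of fatty acid oxidation, was at 72.4, 73.0 and 70.1 CPM with DMSO, 101, 94.3 and 97.3 with VS-4718 and 168, 167 and 169 with GSK215 (log2 difference 0.78, SE 0.03, edgeR adjusted *P* = 2.5e-21), while *Fabp5* (-0.39) and the nuclear receptor *Ppard* (-0.37) were lower.

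In amino acid metabolism, 11 of 15 genes of serine and one-carbon metabolism were lower and none higher (median -0.28), 73.3% lower against a level-matched 47.9%. *Mthfd2*, a mitochondrial folate enzyme, was at 220.3, 208 and 211 CPM with DMSO, 132, 126 and 128 with VS-4718 and 82.8, 78.1 and 81.6 with GSK215 (log2 difference -0.67, SE 0.04, edgeR adjusted *P* = 6.6e-18). *Shmt2* (-0.59), *Phgdh*, the first enzyme of serine synthesis (-0.37), and *Mthfd1* (-0.34) were lower too. Of 26 ATF4 and CHOP stress genes, 12 were lower and 7 higher (median -0.20), 46.2% lower against a level-matched 29.6%. The amino acid transporter *Slc7a5* was at 459, 448 and 471 CPM with DMSO, 367, 357 and 335 with VS-4718 and 218, 223 and 225 with GSK215 (log2 difference -0.67, SE 0.03, edgeR adjusted *P* = 9.5e-19), with *Atf5* (-0.70) and *Cth* (-0.60) lower and *Cebpb* (0.60) and *Pck2* (0.37) higher. *Chac1*, which degrades glutathione, was at 23.3, 25.1 and 21.9 CPM with DMSO, 3.77, 3.23 and 2.88 with VS-4718 and 2.30, 2.99 and 2.96 with GSK215, and *Trib3*, a pseudokinase induced by CHOP, at 37.2, 33.5 and 31.9 CPM with DMSO, 5.03, 6.37 and 5.50 with VS-4718 and 4.92, 5.18 and 5.87 with GSK215. Both drugs held these genes far below DMSO, and the drugs were not separated by the test for *Chac1* (-0.24, adjusted *P* = 0.19) or *Trib3* (-0.06, adjusted *P* = 0.68). The 95% interval of the difference was -0.57 to 0.08 for *Chac1* and -0.30 to 0.18 for *Trib3* on the log2 scale.

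Of 32 HIF targets, which low oxygen induces, 20 were lower and 4 higher with GSK215 (median -0.22), 62.5% lower against a level-matched 42.2%. *Adm*, adrenomedullin, was at 22.6, 23.1 and 24.1 CPM with DMSO, 15.1, 15.8 and 13.4 with VS-4718 and 7.74, 7.37 and 8.24 with GSK215 (log2 difference -0.92, SE 0.08, edgeR adjusted *P* = 6.2e-12). *Hk2*, hexokinase 2, was at 193, 189 and 189 CPM with DMSO, 119.8, 123 and 125 with VS-4718 and 90.4, 91.8 and 94.3 with GSK215, and *Pfkfb3* (-0.57) and *Higd1a* (-0.46) were lower too. In these 4 genes GSK215 was lowest, VS-4718 intermediate and DMSO highest, without overlap. The list also held the glycolytic enzymes *Pgk1* (-0.35), *Eno1* (-0.37) and *Ldha* (-0.30), whereas *Vegfa* (-0.03, adjusted *P* = 0.62) and *Bnip3* (-0.05, adjusted *P* = 0.41) did not pass. The 4 higher members were *Selenbp1* (1.70), with a mean under 1 CPM, and *Car9*, a carbonic anhydrase (0.30), *Kdm3a*, a histone demethylase (0.29), and *Pdk1*, which restrains pyruvate oxidation (0.14). These 9 were picked with their values in view. Of 13 HIF subunits and E3 ligase parts, 8 were lower and 1 higher (median -0.13, 5 to 9 lower over the alternatives), 61.5% lower against a level-matched 41.5%. *Epas1*, which encodes HIF-2α, was at 6.28, 5.54 and 6.79 CPM with VS-4718 and 10.2, 9.88 and 10.4 CPM with GSK215 (log2 difference 0.70, SE 0.11, edgeR adjusted *P* = 5.6e-07). *Elob* (-0.27), *Eloc* (-0.36) and *Cul2* (-0.28), parts of the VHL ligase, were lower.

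Oxidative phosphorylation is encoded in both the nuclear and the mitochondrial genome. Of 13 mitochondrially encoded genes, 12 were higher and none lower (median 0.41), 92.3% higher against a level-matched 20.0%. Among them were *mt-Nd4* at 1305, 1285 and 1340.4 CPM with VS-4718 and 1867, 1687 and 1840.1 CPM with GSK215 (log2 difference 0.46, SE 0.05, edgeR adjusted *P* = 9.3e-10), *mt-Nd5* (0.38) and *mt-Nd6* (0.41). *mt-Nd6* lies on the other strand next to *mt-Nd5*, and *mt-Atp6* (0.65), listed at only 3.77, 3.05 and 5.50 CPM with VS-4718 and 6.10, 6.30 and 7.05 CPM with GSK215, overlaps a neighbor, so both are uncertain. Of 36 nuclear genes of the same complexes, 22 were lower and 1 higher (median -0.11), but 11 were lower with library totals alone, and the share of 61.1% was near the level-matched 57.2%. *Cycs*, cytochrome c, was at 248, 246 and 241 CPM with VS-4718 and 196, 188 and 191 CPM with GSK215, with *Uqcrfs1* (-0.34), *Cox5b* (-0.29) and *Cyc1* (-0.28) lower. The rise in mitochondrial RNA moves with the higher mitochondrial share of the GSK215 libraries given above. Leaving these genes out of the table, also an alternative added after the data were seen, gave 7717 calls among the remaining genes.

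Of 37 DNA replication genes, 26 were lower and 1 higher with GSK215 (median -0.20), 70.3% lower against a level-matched 51.2%. *Mcm3*, of the replicative helicase, was at 532, 518 and 519.5 CPM with DMSO, 490.1, 485 and 474 with VS-4718 and 335, 342 and 358 with GSK215 (log2 difference -0.49, SE 0.03, edgeR adjusted *P* = 8.7e-16), with *Mcm2* (-0.41), *Cdc6* (-0.43) and *Pcna* (-0.40). Of 30 mitosis and spindle genes, 21 were lower and 2 higher (median -0.14), 13 with library totals alone, and the share of 70.0% was near the level-matched 61.0%. *Mybl2*, a cell cycle transcription factor, was at 229, 227 and 231 CPM with DMSO, 213, 198 and 181 with VS-4718 and 117, 124 and 119.7 with GSK215 (log2 difference -0.71, SE 0.04, edgeR adjusted *P* = 4.9e-17), followed by *Kif20a* (-0.40), *Ube2c* (-0.35) and *Foxm1* (-0.27). Of 18 G1 cyclins, CDKs and inhibitors, 11 were lower and 3 higher (median -0.15, 7 lower with library totals alone), 61.1% lower against a level-matched 43.8%. *Ccnd1*, cyclin D1, was at 613, 599 and 617 CPM with DMSO, 427, 429 and 432 with VS-4718 and 328, 313 and 324 with GSK215 (log2 difference -0.42, SE 0.03, edgeR adjusted *P* = 1.6e-14), with *Ccnd2* (-0.47), *Ccnd3* (-0.55) and *Ccne1* (-0.47). Of 19 p53 targets, 11 were lower and 1 higher (median -0.17, 7 lower with library totals alone), 57.9% lower against a level-matched 30.1%. *Cdkn1a*, the CDK inhibitor p21, was at 15.7, 16.6 and 15.7 CPM with DMSO, 7.27, 8.86 and 7.86 with VS-4718 and 3.74, 4.27 and 5.38 with GSK215 (log2 difference -0.82, SE 0.12, edgeR adjusted *P* = 3.0e-07), *Phlda3* differed by -0.44, and *Trp53inp1* was the one higher, at 4.38, 5.28 and 3.87 CPM with VS-4718 and 14.2, 13.3 and 14.3 CPM with GSK215 (log2 difference 1.64, SE 0.11, edgeR adjusted *P* = 9.6e-16). Of 8 genes of the MYC, MAX and MXD network, 3 were lower and 1 higher (median -0.09), 37.5% lower against a level-matched 34.1%. *Max* (-0.26), *Mlxip* (-0.26) and *Mycl* (-0.82), the last outside the naming rule, were lower and *Mxd1* (0.53) was higher. *Myc* itself, counted with the ERK output genes, was lower (-0.40).

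Signalling readouts were mixed. Of 20 ERK output genes, 10 were lower and 5 higher (median -0.17), against a level-matched share lower of 34.8%. With library totals alone, 7 were lower and 7 higher. *Ier3* was at 113, 114 and 104 CPM with DMSO, 73.8, 74.9 and 72.4 with VS-4718 and 39.2, 38.9 and 37.5 with GSK215 (log2 difference -0.94, SE 0.05, edgeR adjusted *P* = 9.2e-18) and *Phlda1* differed by -0.55, whereas *Egr1*, at 8.68, 8.49 and 10.2 CPM with DMSO, 13.4, 12.3 and 13.5 with VS-4718 and 21.8, 20.7 and 21.3 with GSK215, and the ERK antagonist *Spry1* (0.54) were higher. Of 19 AP-1 and immediate-early genes, 10 were lower and 1 higher (median -0.13), 52.6% lower against a level-matched 29.6%. *Maff* (-0.81), *Zfp36* (-0.76), *Mafk* (-0.74) and *Fosl2* (-0.49) were lower. Of 28 TGF-beta and BMP genes, 7 were lower and 6 higher (median 0.06), against 4 lower and 11 higher with library totals alone. The level-matched shares were 31.6% lower, against 25.0%, and 24.6% higher, against 21.4%. The inhibitor *Smad7* (-0.73) was lower and the coreceptor *Tgfbr3* (0.69) and *Ltbp2* (0.66) were higher. Of 22 FOXO and PI3K-AKT feedback genes, 12 were higher and 2 lower (median 0.19), 54.5% higher against a level-matched 25.2%. *Mxd4* was at 6.33, 5.03 and 5.23 CPM with DMSO, 14.4, 15.0 and 12.9 with VS-4718 and 39.3, 39.2 and 42.6 with GSK215 (log2 difference 1.52, SE 0.07, edgeR adjusted *P* = 6.1e-20) and *Txnip*, which restrains glucose uptake, at 25.8, 26.7 and 26.1 CPM with DMSO, 38.0, 35.7 and 40.9 with VS-4718 and 72.4, 71.5 and 73.7 with GSK215 (log2 difference 0.92, SE 0.05, edgeR adjusted *P* = 3.7e-19), with *Pik3ip1*, an inhibitor of PI3K (0.91), and *Ccng2* (0.69). Of 10 BCL2 family genes, 1 was higher and 2 lower (median 0.04), but 5 higher and 1 lower with library totals alone (level-matched shares of 23.3% higher, against 10.0%, and 31.4% lower, against 20.0%). The one higher with TMM was *Bmf*, a proapoptotic member held by actin-based motors, at 3.66, 4.17 and 3.87 CPM with DMSO, 8.22, 9.64 and 9.87 with VS-4718 and 18.9, 19.8 and 17.3 with GSK215 (log2 difference 1.01, SE 0.09, edgeR adjusted *P* = 9.2e-12), against *Bak1* (-0.34) and *Bcl2l1*, which encodes BCL-XL (-0.19, lost with library totals alone).

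Among immune genes, those of the interferon list were mostly higher, many at low levels. Of 24 tested interferon response genes, 17 were higher and 1 lower (median 0.38), and 7 were higher among those kept by the 5 CPM minimum. The level-matched share higher was 25.9%, against 70.8%. *Ifih1*, a sensor of viral RNA, was at 4.49, 3.93 and 4.67 CPM with VS-4718 and 6.50, 6.51 and 6.07 CPM with GSK215 (log2 difference 0.54, SE 0.12, edgeR adjusted *P* = 2.3e-04), with *Stat2* (0.36) and *Ifit2* (0.34). Of 18 genes of MHC class I antigen presentation, 9 were higher and 1 lower (median 0.31), against a level-matched share higher of 21.5%. *Tapbp*, tapasin, was at 114, 115 and 118 CPM with DMSO, 152, 149 and 151 with VS-4718 and 214, 206 and 211 with GSK215 (log2 difference 0.48, SE 0.03, edgeR adjusted *P* = 2.9e-15), with *Tap2* (0.57), *Erap1* (0.39) and *H2-T23* (0.63), the last a member of a family of near copies. Of 24 NF-kB subunits, feedback genes and chemokines, 8 were higher and 7 lower (median 0.13), 10 and 4 with library totals alone. The shares were 33.3% higher and 29.2% lower, against level-matched shares of 23.5% and 26.9%. The monocyte chemokine *Ccl2* was at 27.1, 26.1 and 27.8 CPM with DMSO, 35.2, 36.0 and 36.6 with VS-4718 and 70.1, 68.7 and 70.7 with GSK215 (log2 difference 0.96, SE 0.05, edgeR adjusted *P* = 3.0e-18) and the neutrophil chemokine *Cxcl5* at 12.1, 10.8 and 10.1 CPM with DMSO, 15.1, 13.9 and 14.0 with VS-4718 and 35.8, 36.6 and 36.5 with GSK215 (log2 difference 1.34, SE 0.07, edgeR adjusted *P* = 8.0e-19), *Vcam1* was higher (0.50), and the feedback inhibitor *Tnfaip3* was lower (-0.51). Of 23 NRF2 antioxidant genes, 11 were lower and 6 higher (median -0.07), and 8 were lower and 8 higher with library totals alone. The share lower, 47.8%, was near the level-matched 48.6%. *Txn1* (-0.48) and *G6pdx* (-0.38) were lower and *Hmox1*, at 22.7, 23.7 and 25.1 CPM with VS-4718 and 30.8, 31.4 and 30.8 CPM with GSK215, was higher beside *Aldh3a1*. Of 9 genes of iron uptake, storage and sensing, 4 were lower and 3 higher (median -0.03), and the share lower, 44.4%, was below the level-matched 52.3%. Those named were the transferrin receptor *Tfrc* at 765, 766 and 762 CPM with DMSO, 566, 592 and 625 with VS-4718 and 463, 451 and 441 with GSK215, *Aco1* (-0.35), *Slc11a2* (-0.28) and *Steap3* (0.25).

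Markers of other cell types were low, and the defining ones were at or near 0. Summed over all 10 macrophage markers, the level was 4.80 to 5.90 CPM with VS-4718 and 5.98 to 7.61 with GSK215, with *Ptprc*, *Adgre1* and *Itgam* at no more than 3 counts in any of the 9 libraries, and 1 of 2 tested members, *Cd68*, a gene of lysosomes in many cells, was higher (0.40), a call lost without GSK215 replicate 1 (adjusted *P* = 0.053). The sum of 10 fibroblast and perineurial markers was 1.35 to 2.09 CPM with VS-4718 and 1.97 to 2.56 with GSK215 (0 of 3 tested called), that of 10 neuron markers was at most 0.641 CPM (none tested) and that of 7 melanocyte markers at most 0.919 CPM (0 of 1 called). The 7 endothelial markers summed to 4.59 to 5.54 CPM over both drugs (1 of 2 higher, 1 lower) and the 8 epithelial markers to 4.91 to 6.03 CPM with VS-4718 and 8.22 to 9.42 with GSK215, with *Cdh5*, *Epcam* and *Cdh1* at no more than 3 counts. Of 3 tested epithelial markers, the keratins *Krt8* (1.54) and *Krt18* (0.67, at 3.16, 3.62 and 4.52 CPM with VS-4718 and 6.43, 5.55 and 6.12 CPM with GSK215) were higher and *Krt19* (-1.93) lower. The part of these markers in the results above was not tested.

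**Figure D3:**
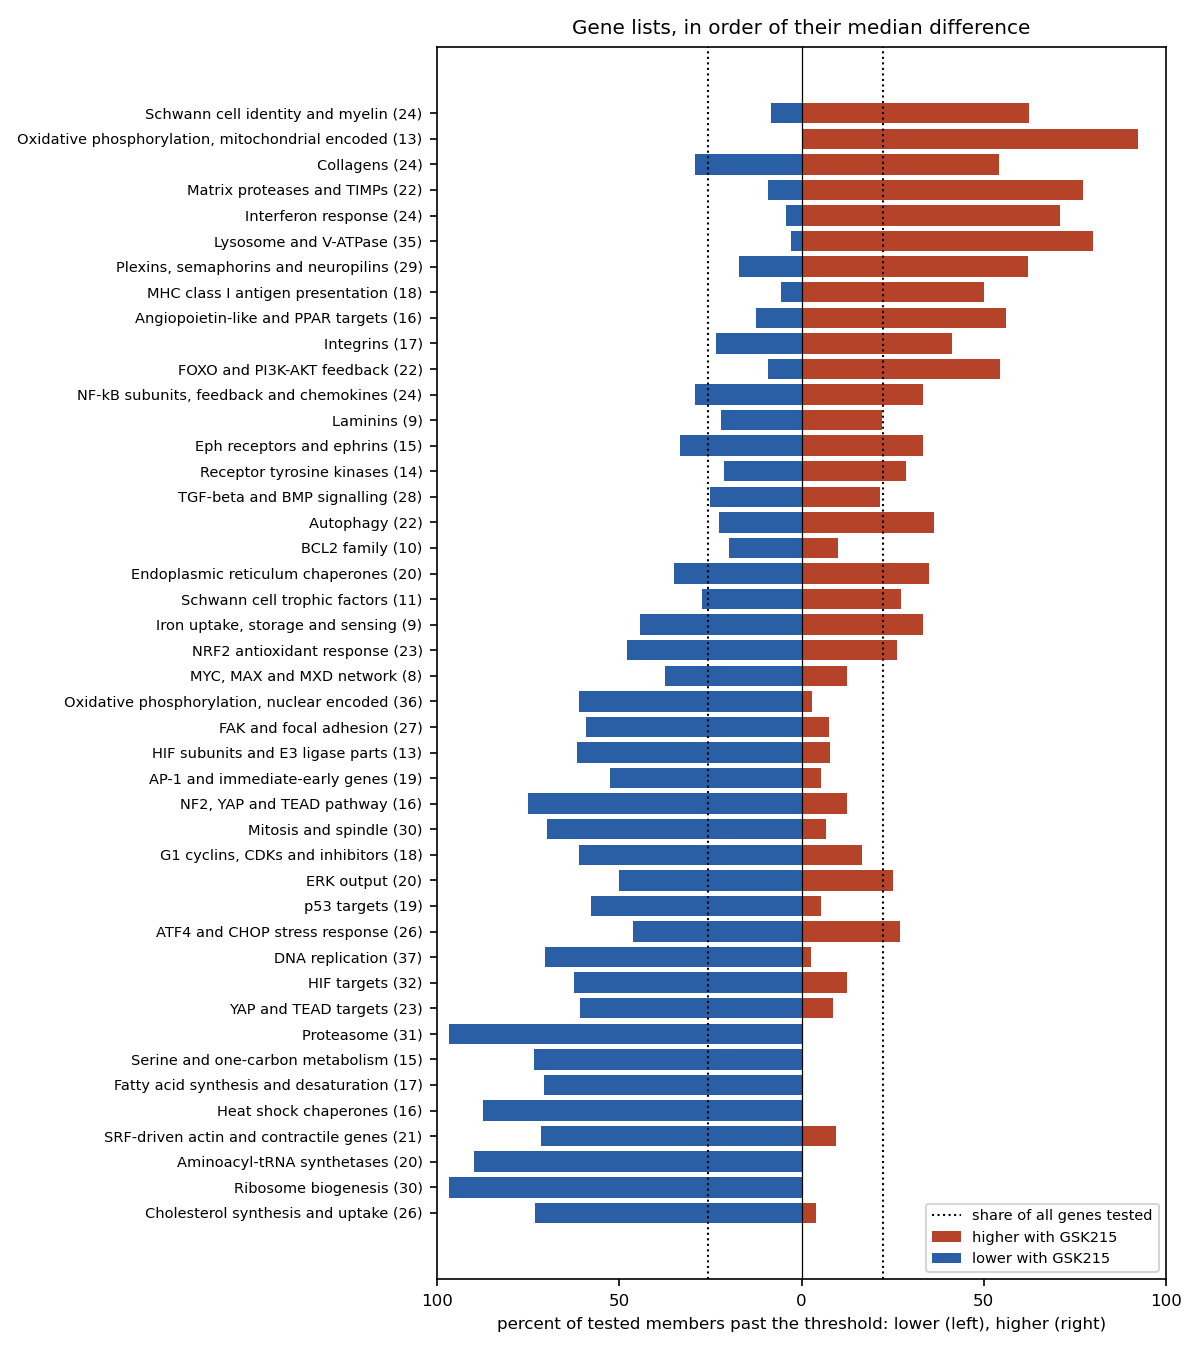
Share of the tested members of each list (number in brackets) that were higher (red, right) or lower (blue, left) with GSK215 at an adjusted *P* under 0.05, for lists with at least 8 tested members in order of their median log2 difference. Dotted lines mark the shares over all genes tested, 22.4% higher and 25.8% lower, which the Schwann cell, mitochondrially encoded and lysosomal lists exceed on the right and the cholesterol, ribosome biogenesis and proteasome lists exceed on the left; the lines do not take the level of the genes into account.

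Set side by side against the same 3 DMSO libraries, GSK215 changed 8785 genes (54.7%), of which 4406 rose (27.4%) and 4379 fell (27.2%), and 1144 (7.12%) changed by at least 2-fold. VS-4718 changed 6304 genes (39.2%), of which 3273 rose (20.4%) and 3031 fell (18.9%), and 332 (2.07%) changed by at least 2-fold. Since these comparisons share their DMSO libraries, their values are listed and their overlap is not read. The median of the Schwann cell list was 1.36 with GSK215 and 0.51 with VS-4718, that of the lysosomal list 0.49 with GSK215 and 0.18 with VS-4718 and that of matrix proteases 0.86 with GSK215 and 0.29 with VS-4718. For ribosome biogenesis the medians were -0.52 with GSK215 and -0.14 with VS-4718, for cholesterol synthesis -0.58 with GSK215 and -0.24 with VS-4718, for HIF targets -0.73 with GSK215 and -0.43 with VS-4718 and for ATF4 and CHOP genes -0.99 with GSK215 and -0.77 with VS-4718. The SRF-driven list had medians of -0.09 with GSK215 and 0.21 with VS-4718, the AP-1 list -0.25 with GSK215 and 0.13 with VS-4718, the focal adhesion list 0.04 with GSK215 and 0.18 with VS-4718, the integrins 0.12 with GSK215 and 0.19 with VS-4718 and the mitochondrially encoded list 0.57 with GSK215 and -0.06 with VS-4718. *Aldh3a1* stood at a log2 difference from DMSO of 3.20 with GSK215 and 1.33 with VS-4718, whereas *Bcar1* stood at 0.04 with GSK215 and 0.59 with VS-4718, *Ajuba* at -0.03 with GSK215 and 0.56 with VS-4718 and *H2afx* at 0.23 with GSK215 and 1.20 with VS-4718.

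**Figure D4:**
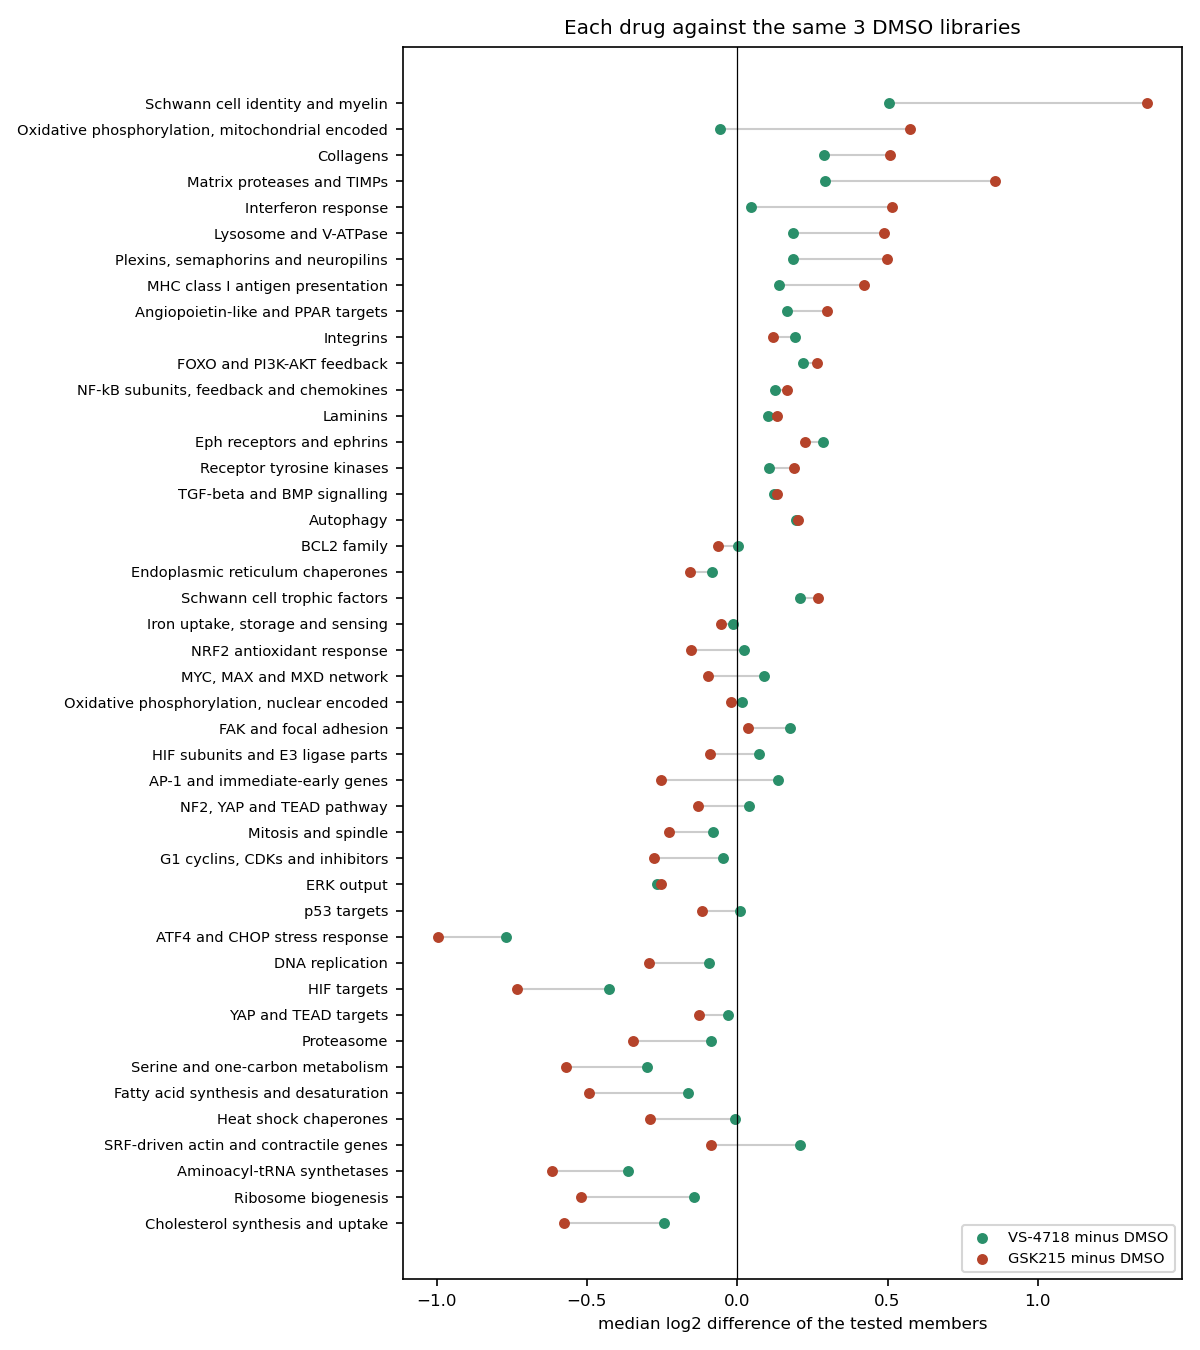
Median log2 difference from DMSO (horizontal axis) of the tested members of each list with VS-4718 (green) and GSK215 (red), both against the same 3 DMSO libraries, lists as in the plot of shares. The Schwann cell medians are 1.36 with GSK215 and 0.51 with VS-4718, and those of the AP-1 list -0.25 with GSK215 and 0.13 with VS-4718.

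The second pair, again a degrader at 0.1 μM and an inhibitor at 1 μM, served to ask which differences were seen in a pair of other compounds. Between BSJ-04-0146 and defactinib, 8186 genes (50.9%) differed, 4151 higher (25.8%) and 4035 lower (25.1%) with the degrader. Of the 3596 genes higher with GSK215 than with VS-4718, 2053 were also higher with BSJ-04-0146 than with defactinib, which is 57.1% of the first list and 49.5% of the second. Another 338 of the 3596 (9.40%) went the opposite way. Of the 4139 lower genes, 2351 were lower in both pairs, 56.8% of the first list and 58.3% of the second, and 483 (11.7%) went the opposite way. The difference between the pairs, tested directly as an interaction, passed the threshold for 5438 genes (33.8%), 2454 more positive (15.3%) and 2984 more negative (18.6%) in the GSK215 pair.

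Several groups had the same direction in both pairs. Over all genes tested, 25.8% were higher and 25.1% lower in the second pair, and 33.8% differed between the pairs. No level-matched share was made for the counts of the second pair or of the difference. Of 35 lysosomal genes, 33 were higher and none lower in the second pair (median 0.50), of 30 ribosome biogenesis genes 29 were lower (median -0.48), and of 24 Schwann cell genes 15 were higher and 2 lower (median 0.99). The size differed between the pairs, by the test of the difference, for 20 of the 35, 20 of the 30 and 8 of the 24. The last count, for Schwann cell genes, was near the 33.8% of all genes. *Sox10* was 1.06 in the first pair and 1.72 in the second, *Angptl4* 2.96 and 3.81, *Hexa* 1.02 and 0.94 and *Mcoln1* 0.87 and 0.87. Other groups parted. The test of the difference between pairs passed for 19 of 26 cholesterol genes, 17 of them more negative in the GSK215 pair. The second pair had 9 higher and 11 lower. *Idi1* was -0.71 against 0.20. For the proteasome, the pairs differed in 21 of 31 genes, all more negative in the GSK215 pair. The first pair had 30 lower and 0 higher, the second 13 lower and 2 higher. For nuclear genes of oxidative phosphorylation they differed in 28 of 36, all more negative in the GSK215 pair, with 21 of the 36 higher in the second. The mitochondrially encoded genes were higher in the first pair and not in the second (2 higher, 3 lower of 13), with 9 of 13 past the test of the difference. In the focal adhesion list the pairs differed in 20 of 27 genes, 18 of them more negative in the GSK215 pair, among them *Bcar1* (-0.55 against 0.17). For ATF4 and CHOP genes they differed in 23 of 26, 21 of them more positive in the GSK215 pair. Both medians were negative, with 12 of 26 lower in the first pair (median -0.20) and 21 of 26 in the second (median -1.02). Of 20 endoplasmic reticulum chaperones, 16 differed, all more positive in the GSK215 pair. In the first pair 7 were lower and 7 higher, and in the second 19 of 20 were lower.

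**Figure D5:**
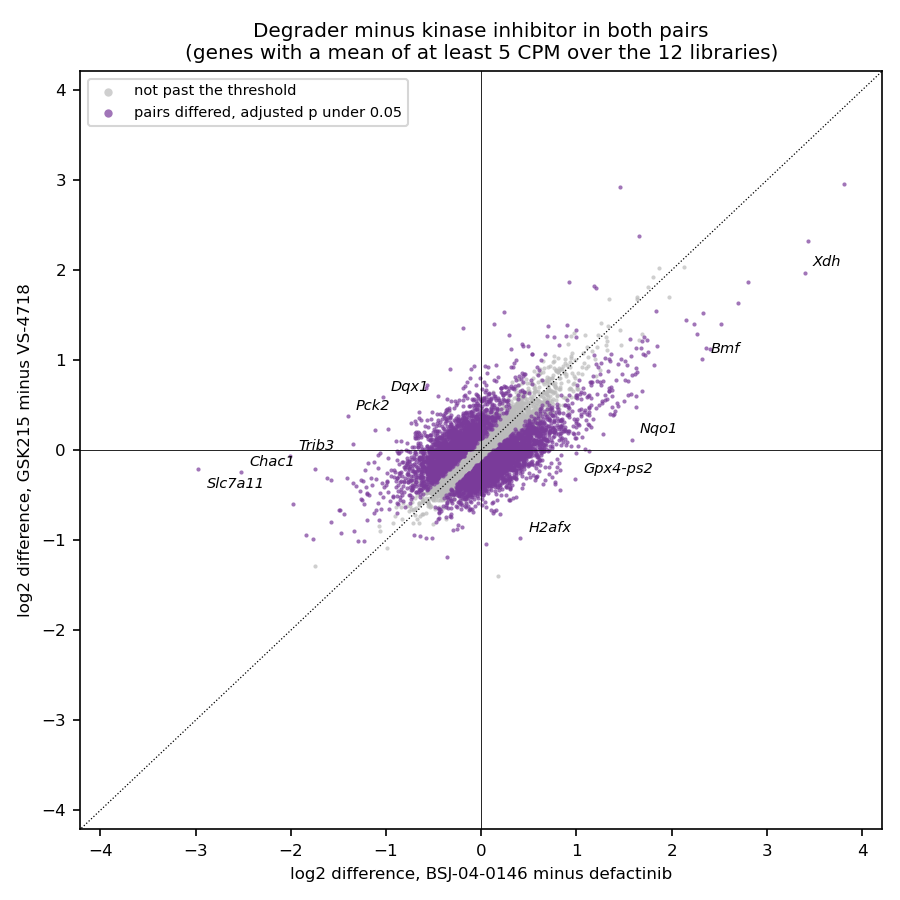
Log2 difference between GSK215 and VS-4718 (vertical axis) against that between BSJ-04-0146 and defactinib (horizontal axis) for genes whose level averaged 5 CPM or more over the 12 libraries of both pairs, each gene 1 point. Purple points differed between the pairs at an adjusted *P* under 0.05, the dotted line marks equal differences, and the named genes are the 5 largest differences between pairs in each direction, with *Slc7a11*, *Chac1* and *Trib3* near 0 on the vertical axis and low on the horizontal one.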

How the data were processed

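RNA from MS03 cells treated for 24 hours was selected for poly(A) tails and sequenced. According to the submitters' processing notes, the tools were Trimmomatic 0.36, STAR 2.5.2b and featureCounts of Subread 1.5.2 on mouse build GRCm38. The authors deposited raw read counts per gene for 24 libraries in 1 table of 49315 genes. The strand setting and annotation release of the counting are not given in the sources used here, so reads of overlapping or antisense genes cannot be told apart. This applies to 101 of the 203 genes named by rule, which overlap another gene in GENCODE M21 (49056 of the 49315 identifiers matched), and reads of near-identical copies may be split.

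Genes that passed edgeR's filterByExpr (16070) were scaled by TMM and fitted with edgeR 4.0.16 (quasi-likelihood test, two-sided) in R 4.3.3, with 1 coefficient for each of the 8 groups and 16 residual degrees of freedom. *P*-values were Benjamini-Hochberg adjusted over all genes tested, and 0.05 was the threshold. SE is the log2 difference divided by the square root of the F statistic. The difference between pairs was fitted as a contrast of the same model. Lists were described by counts and medians, with no set test. DESeq2 1.42.0 and limma 3.58.1 served as alternatives.

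Named genes were the 12 largest increases and 12 largest decreases with a mean of at least 5 CPM, no overlap between the 6 libraries and a proper gene name, up to 4 members per list by size of change, *Ptk2*, *Ptk2b*, *Nf2*, *Met*, *Sox10*, *Vhl* and *Crbn* whatever their values, and the 5 largest differences between pairs in each direction. The pair, its second pair and the 50 lists (1076 genes, 940 tested) were chosen with earlier results of these data known. The labels give no origin of the replicates beyond the word biological, so *P*-values measure the spread between these libraries. Same-numbered replicates of BSJ-04-0146 and defactinib deviated together from their group means (correlations 0.20, 0.21 and 0.25 across genes), and a fit with the number as a block gave 8135 calls in place of 8186. No table of other samples' columns was used. Some items are not reported here.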

Additional observations from a re-analysis of the deposited data

Results flagged for a closer look

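The difference between GSK215 and VS-4718 was not the difference between BSJ-04-0146 and defactinib for 5438 of 16070 genes, by the edgeR test of the difference between the pairs. Of these, 2454 were more positive and 2984 more negative in the GSK215 pair. The 5 largest values in each direction are given here as log2 differences between the pairs, with no explanation.

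The positive ones were genes of the amino acid and stress response and 1 helicase. *Slc7a11*, the cystine transporter, stood at 2.76, and was -0.21 between GSK215 and VS-4718 and -2.97 in the second pair. Its mean level was 30.2 CPM with DMSO, 4.51 with GSK215 and 5.07 with BSJ-04-0146. With the inhibitors it was 5.19 CPM (VS-4718) and 39.9 CPM (defactinib), so the inhibitors were further apart than the degraders. *Chac1* stood at 2.28 (-0.24 and -2.53), *Trib3* at 1.94 (-0.06 and -2.01), and *Pck2*, the mitochondrial phosphoenolpyruvate carboxykinase, at 1.78 (0.37 and -1.40). *Dqx1*, a putative helicase, stood at 1.63 (0.59 and -1.04) at 3.43, 3.23 and 3.15 CPM with VS-4718 and 4.07, 5.02 and 5.53 CPM with GSK215.

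The negative ones were *Nqo1*, a quinone reductase, at -1.46 (0.12 and 1.58), *Xdh* at -1.43 (1.97 and 3.40), *H2afx* at -1.39 (-0.98 and 0.41), *Bmf* at -1.31 (1.01 and 2.32) and *Gpx4-ps2* at -1.31 (-0.32 and 0.98). *Gpx4-ps2* is a pseudogene that may share reads with *Gpx4*, and its own call in the first pair was lost without VS-4718 replicate 1 (adjusted *P* = 0.078). Single values were not screened for an outlying library, since each group held 3.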

How the results depend on the processing

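Between GSK215 and VS-4718, 7735 genes passed the edgeR threshold. DESeq2 gave 7242, limma-trend on log2(CPM + 4) 7769, no filter on low counts 7397, the 6 libraries fitted alone 7440, libraries thinned to the smallest total 7094, and removal of GC content and length trends 8126. Leaving out each replicate in turn gave 6846 to 7178. With a mean of at least 5 CPM, chosen after seeing the data, 6305 passed. With the replicate block 7678 passed, and under this block the counts of the other comparisons stayed within 1.5 times of the main fit. Same-numbered libraries of the 2 drugs did not deviate together (correlations -0.21, 0.02 and -0.20). With 3 libraries in each group, these values cannot tell whether equal numbers mark a shared batch or day. With library totals alone, 4859 genes were higher and 2711 lower, and 1338 were lower in both pairs in place of 2351. With a minimum change of 2-fold, 668 genes differed (603 higher, 65 lower), 1144 between GSK215 and DMSO, 332 between VS-4718 and DMSO, 867 between BSJ-04-0146 and defactinib and 353 between the pairs, with 265 higher and 20 lower in both pairs. Of the 203 named genes, 11 changed their side of the threshold or their sign in at least 1 of the 16 alternatives that set no minimum change and in which they were tested (196 of them with the 5 CPM minimum, 199 without mitochondrial genes). *Trib3*, which passed in none of them (-0.06, edgeR adjusted *P* = 0.68), turned to 0.020 with library totals alone (adjusted *P* = 0.90), and with each replicate left out in turn it ranged from -0.14 without GSK215 replicate 3 to 0.024 without VS-4718 replicate 2. The others were *Lamc1*, *Lama5*, *Met*, *Vhl*, *Ptk2*, *Bcl2l1*, *Gpx4-ps2* and *Cd68*, lost in at least 1 alternative, and *Slc7a11* and *Crbn*, gained with GC content and length trends removed. The cause was not tested.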
